A study of Homo sapiens with 4 samples.

Results

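Metallothioneins are encoded by a cluster of paralogous genes on chromosome 16, and the 10 rows described here are MT2A, MT1E, MT1X, MT1F, MT1M, MT1A and MT1G with the pseudogenes MT1L, MT1JP and MT1DP. They were found by looking up their symbols against the Ensembl identifiers of the count table, which gave 10 of its 61541 genes. The RNA came from MDA-MB-231, an established breast cancer line, in 2 groups with 2 libraries each. Control cells had no cadmium added to their medium. The cadmium cells were a population selected by serial passage in medium with CdSO4, begun at a lower concentration and raised to 10 µM, and the sources used here do not say whether both cadmium libraries came from separately selected cultures or whether cadmium was still present at harvest. The comparison therefore addresses long-term growth in cadmium in 1 cell line and not the first hours of exposure. Libraries take their names (control 2 and 3, cadmium 1 and 2) from the columns of the table, and p-values measure the spread between these libraries. The labels call the controls biological replicates and the cadmium libraries only replicates, so the spread of the latter may be technical.

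Metallothioneins are small proteins rich in cysteine that hold zinc, copper and cadmium in clusters of metal and sulphur. Their promoters carry short sequences called metal response elements, which the zinc finger factor MTF-1 binds when free zinc rises, and cadmium can raise free zinc by displacing it from other proteins. MT2A encodes the MT-2 isoform and the MT1 genes encode the MT-1 isoforms, which are nearly alike in size and sequence.

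Libraries held 51934729 to 61916007 reads assigned to genes. Ratios between normalized counts were more scattered in the control pair than in the cadmium pair, with robust SDs of 0.564 and 0.163 on the log2 scale over 12924 genes. The 6 markers of the line, among them VIM, CD44 and AXL, summed to 5004 to 6085 CPM (counts scaled to the library total). None of the 6 was called by DESeq2, MSN having the lowest adjusted p (0.570). Of 3 receptors listed as absent from the line, ERBB2 had 83.6 to 116 CPM, and ESR1 and PGR had at most 0.530. The 5 luminal epithelial markers summed to 1286 to 1528 CPM, of which KRT8 had 885 to 1049. Among them CDH1 had 1.83 CPM in control 2 and 11.1 in control 3, and EPCAM had 41.1 and 12.0. No gene of these lists was called by DESeq2. The 4 blood markers summed to between 0.0808 CPM in control 2 and 2.60 CPM in control 3, with CD3E at 0 in every library, and 4 fibroblast markers summed to between 20.3 and 30.0 CPM.

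The members are so alike that reads are separated by few bases, so the spliced coding sequences are shown for MT2A, for members that changed to different extents and for the pseudogene MT1L. Each of the sequences is 186 bases long and comes from the GENCODE transcripts of GRCh38, in lower case, and capitals mark bases that differ from MT2A.
MT2A: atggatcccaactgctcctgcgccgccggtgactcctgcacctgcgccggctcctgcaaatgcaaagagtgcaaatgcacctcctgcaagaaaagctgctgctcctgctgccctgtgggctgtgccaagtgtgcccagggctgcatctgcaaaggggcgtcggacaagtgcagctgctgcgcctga
MT1E: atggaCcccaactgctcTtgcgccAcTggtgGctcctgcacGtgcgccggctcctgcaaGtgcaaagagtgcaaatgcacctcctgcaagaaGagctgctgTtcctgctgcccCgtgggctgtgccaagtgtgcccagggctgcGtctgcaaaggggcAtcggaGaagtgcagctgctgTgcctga
MT1X: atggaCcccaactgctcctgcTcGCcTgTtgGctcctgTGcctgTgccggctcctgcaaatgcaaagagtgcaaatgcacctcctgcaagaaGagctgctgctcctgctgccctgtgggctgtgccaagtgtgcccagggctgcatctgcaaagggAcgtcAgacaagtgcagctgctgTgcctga
MT1M: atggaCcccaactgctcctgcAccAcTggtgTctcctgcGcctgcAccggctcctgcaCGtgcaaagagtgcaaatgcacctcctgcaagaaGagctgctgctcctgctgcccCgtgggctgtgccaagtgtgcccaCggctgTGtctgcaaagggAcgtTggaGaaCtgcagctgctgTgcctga
MT1L: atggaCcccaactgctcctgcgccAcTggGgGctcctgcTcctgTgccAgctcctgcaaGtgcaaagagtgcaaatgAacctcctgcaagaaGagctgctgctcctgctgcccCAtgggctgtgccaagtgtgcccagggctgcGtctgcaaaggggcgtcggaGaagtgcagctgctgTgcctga
MT1E and MT1X each differed from MT2A at 14 of 186 bases, MT1M at 19 and MT1L at 16. Identity to MT2A was 92.5% for MT1E and MT1X and 89.8% for MT1M. The MT1L reading frame met a stop at codon 26 of 62 and the frame of MT1JP at codon 41, whereas the frames of MT2A, MT1E, MT1X and MT1M ran to codon 62.

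Despite this, a read of 150 bases was long enough to tell the spliced transcripts of most members apart. No 150-base stretch of the canonical MT2A, MT1E, MT1F, MT1M, MT1A or MT1G transcript was found in the transcript of any other gene. In MT1X 6.67% of such stretches were shared, all with ENSG00000259827, an overlapping transcript on the same strand that had 0 reads in every library. That gene covers 321 of the 1727 exon bases of MT1X in the table, and a read falling on both was dropped by the counting. Shorter aligned stretches were less distinct, since 11.1% of 50-base stretches of MT2A, 51.0% of MT1X and 19.9% of MT1G occurred in another gene.

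RefSeq promoter windows (GRCh38.p14) were matched for MT2A and MT1X among the 10 members, and for MT1H, an MT1 gene of the same cluster with no read in any library. To show members whose values differed beside a silent gene of the locus, the 250 bases before each start site are given 5′ to 3′ on the plus strand, and capitals mark the metal response element core, searched as TGCACNC or TGCGCNC on both strands.
MT2A, chr16:56608334-56608583: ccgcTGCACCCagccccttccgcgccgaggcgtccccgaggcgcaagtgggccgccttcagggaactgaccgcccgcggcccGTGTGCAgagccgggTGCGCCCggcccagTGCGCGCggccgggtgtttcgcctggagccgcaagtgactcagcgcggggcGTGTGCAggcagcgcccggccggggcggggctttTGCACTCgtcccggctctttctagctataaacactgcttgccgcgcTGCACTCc
MT1X, chr16:56682220-56682469: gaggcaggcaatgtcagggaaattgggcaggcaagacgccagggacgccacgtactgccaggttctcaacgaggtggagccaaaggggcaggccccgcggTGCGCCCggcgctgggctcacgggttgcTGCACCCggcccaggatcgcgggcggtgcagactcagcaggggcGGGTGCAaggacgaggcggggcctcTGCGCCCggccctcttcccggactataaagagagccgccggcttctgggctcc
MT1H, chr16:56669564-56669813: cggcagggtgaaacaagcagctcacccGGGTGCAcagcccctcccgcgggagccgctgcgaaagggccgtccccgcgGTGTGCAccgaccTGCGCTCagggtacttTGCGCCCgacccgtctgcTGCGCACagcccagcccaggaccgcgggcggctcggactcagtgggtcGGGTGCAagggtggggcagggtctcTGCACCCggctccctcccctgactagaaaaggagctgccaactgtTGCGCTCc
In the full window of 300 bases, which runs past the start site, MT2A held 8 cores, MT1H 8 and MT1X 4. MT1B and MT4, also metallothionein genes of chromosome 16, held 3 each. Of 35097 promoter windows 29.5% held at least 1 core, 0.598% at least 4 and 0.0199% at least 8. In 4 of the 5 promoters a core on the plus strand began 53 or 54 bases before the start site. This position was picked from the matches, and the share of all windows with a core there was not computed.

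Other motifs were fewer. The AP-1 site TGACTCA was found once in MT2A and once in MT1B, and at least 1 such site was present in 4.95% of all windows. The GC box GGGCGG occurred at 2 places in MT2A and 2 in MT1X, a number reached by 26.7% of windows, and 1 of those in MT1X shared 2 bases with a metal response element core. The E-box CACGTG was seen in MT1H alone of the 5, after its start site, and in 7.25% of windows. MT1H and MT2A had the same number of cores, and their reads were 0 and at least 19468 in every library. As windows were matched for only 2 of the 10 members, a relation between cores and reads was not tested.

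**Figure D1:**
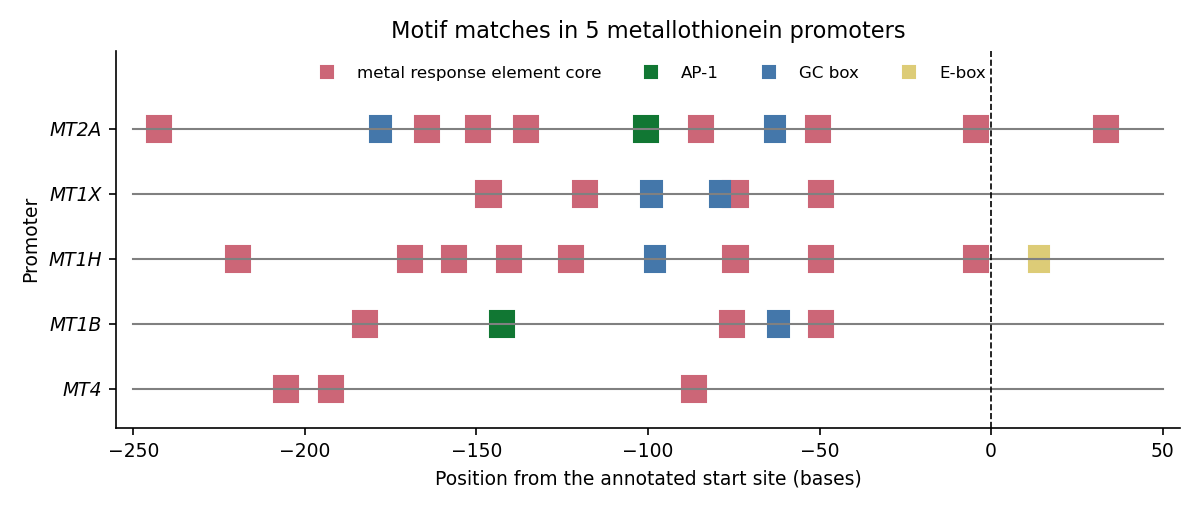
Motif matches in the promoter windows of MT2A, MT1X, MT1H, MT1B and MT4. The horizontal axis is the position from the annotated start site in bases, and each box is a match on either strand. MT2A and MT1H hold 8 metal response element cores each, and 4 of the 5 promoters have a core close to the start site at 53 or 54 bases.

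Most expressed members of the cluster were upregulated in cadmium cells. Of the 10 members 6 had an adjusted p-value in DESeq2, and 5 of these, MT2A, MT1E, MT1X, MT1F and MT1M, were higher in cadmium at an adjusted p below 0.1, against 0.601% of all genes tested. None was lower in DESeq2 by this threshold, against 0.535% of all genes. By an unadjusted p below 0.05 in DESeq2 none of the 10 members was lower either, against 792 of all 33455 genes with a read. The latter include genes without an adjusted p-value. MT1A was the tested member that was not called. The same 5 had both cadmium libraries above both controls, which held for 20.3% of genes, and were at least 2-fold higher whichever cadmium and control library were paired, which held for 2.05%. The median log2 fold change of the 6 tested members was 2.16, beside -0.02 over all genes tested and 0.01 over the other tested genes of chromosome 16. With edgeR 0 members passed the same threshold, since the lowest edgeR adjusted p-value of any gene was 0.674. At an unadjusted p below 0.05, which 3.68% of all genes met on the higher side, edgeR had MT2A, MT1E, MT1X and MT1F higher, and also MT1M and MT1G, which entered the test through the cadmium libraries in which they were high. MT1M entered the DESeq2 counts and median above in the same way. The 10 members were chosen with earlier results of these data known. The shares over all genes are therefore a background and not a test of the members as a set.

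**Figure D2:**
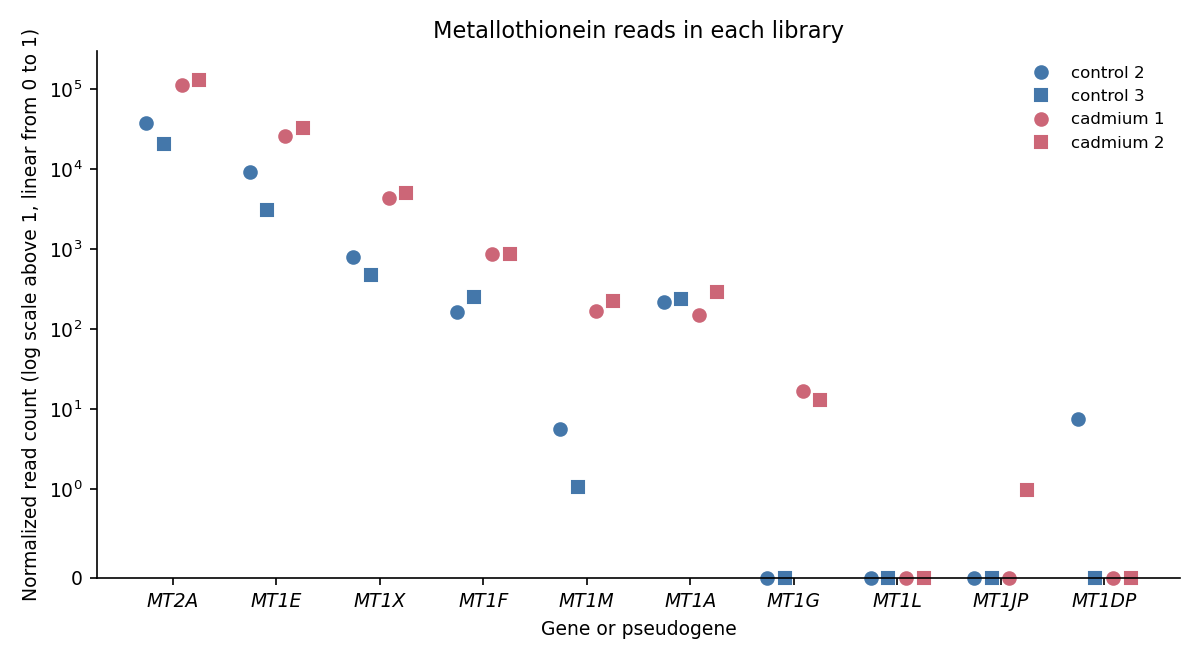
Normalized read counts of the 10 members in each of the 4 libraries. The vertical axis is logarithmic above 1 and linear from 0 to 1, and each point is 1 library. Both cadmium libraries lie above both controls for MT2A, MT1E, MT1X, MT1F, MT1M and MT1G, the MT1A points are interleaved, and the 3 pseudogenes lie at or near 0.

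MT2A (ENSG00000125148, chr16:56608584-56609497, hg38, plus strand) was the most abundant member. It had 39918 and 19468 reads in control 2 and control 3, and 112869 and 132639 in cadmium 1 and cadmium 2. The lower cadmium library had 2.97 times the normalized count of the higher control, and the widest pairing gave 6.33 times. Mean normalized counts were 29236 ± 12071 in control and 121644 ± 13170 in cadmium (SD, n = 2 each). DESeq2 put the log2 fold change at 2.06 (standard error 0.36, adjusted p 9.41e-06), and edgeR gave an unadjusted p of 0.00151. With a single cadmium library the DESeq2 adjusted p-value missed the threshold, at 0.111 (log2 fold change 2.16) when cadmium 1 was left out and at 0.294 (1.94) when cadmium 2 was. These are bulk libraries, in which more cells expressing a gene and more RNA per expressing cell cannot be told apart.

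Among all genes of a library, MT2A stood near the top. Per length its rank was 14 and 42 in the controls and 4 and 3 in the cadmium libraries. By reads alone it ranked 167 and 407 in the controls and 19 in both cadmium libraries. Both controls therefore already held MT2A among the most abundant messages per length, of those with counted reads. The 37 mitochondrial genes had no counted reads in any library, so their messages are missing from these ranks.

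MT1E (ENSG00000169715, chr16:56625475-56627112, plus strand), the MT1 gene with most reads, had a wide gap between its controls. Control 2 had 9757 reads and control 3 had 2916, while cadmium 1 had 25899 and cadmium 2 had 33252. The groups did not overlap, and cadmium over control ranged from 2.79 to 10.6 between pairings of libraries. DESeq2 gave a log2 fold change of 2.25 (standard error 0.48, adjusted p 0.00119), and edgeR an unadjusted p of 0.00930. The size of this change depended on the control, as leaving out control 2 gave 3.24 and leaving out control 3 gave 1.65 on the log2 scale. The DESeq2 adjusted p-value was 0.148 without cadmium 1 and 0.531 without cadmium 2.

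MT1X (ENSG00000187193, chr16:56682470-56684196, plus strand) lies at the far end of the cluster from MT2A. It had 847 and 446 reads in control 2 and control 3, and 4395 and 4996 in cadmium 1 and cadmium 2. The smallest pairing was 5.46-fold and the largest 10.4-fold. Its change of 2.87 on the log2 scale (standard error 0.34) had the lowest DESeq2 adjusted p among the members, 3.48e-13, with an unadjusted p of 2.49e-04 in edgeR. MT1X remained called by DESeq2 without any 1 library, with adjusted p-values of 6.41e-04 without cadmium 1 and 0.00311 without cadmium 2.

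MT1F (ENSG00000198417, chr16:56657731-56660698, plus strand) had 172 and 234 reads in the controls and 875 and 868 in the cadmium libraries. In contrast to the members above, control 3 was the higher control. The cadmium libraries were close to each other and 3.44 to 5.35 times the controls. In DESeq2 this was 2.07 on the log2 scale (standard error 0.35, adjusted p 2.80e-06), and the unadjusted p in edgeR was 0.00124. The DESeq2 adjusted p-value was 0.444 without cadmium 1 and 0.360 without cadmium 2.

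MT1M (ENSG00000205364, chr16:56632659-56633981, plus strand) was close to silent in control cells. Reads numbered 6 in control 2 and 1 in control 3, beside 166 in cadmium 1 and 226 in cadmium 2. It passed the filter on low counts through its cadmium libraries, since its mean normalized count was 3.37 ± 3.26 in control (SD, n = 2) and the filter stood at a mean of 7.69 over all libraries. The ratio of cadmium to control reads, corrected for depth, was 55.4 with an exact 95% interval of 26.7 to 139. Mates were counted separately, and computed on pairs the interval widened to 18.6 to 180. The pair estimate of 48.5 rests on rounding, as the 7 control reads are an odd number. Both intervals cover counting error only. DESeq2 gave a log2 fold change of 5.81 (standard error 0.76, adjusted p 6.56e-11) and edgeR an unadjusted p of 5.94e-04. Few control reads set this size, which moved to 7.51 on the log2 scale when control 2 was left out and to 5.08 when control 3 was. It remained called by DESeq2 without cadmium 1 (adjusted p 3.25e-04), and without cadmium 2 it received no adjusted p-value.

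MT1G (ENSG00000125144, chr16:56666730-56668065), the only member on the minus strand, was detected in the cadmium libraries alone. It had 0 reads in both controls, 17 in cadmium 1 and 13 in cadmium 2. Against a floor of 3 pairs, or 6 counts, per library cadmium was at least 2.47-fold higher. Its mean count lay under the DESeq2 filter, so it had no adjusted p-value there, and the unadjusted p was 0.00278 in DESeq2 and 0.00670 in edgeR. Without control 3 DESeq2 gave MT1G an adjusted p of 0.0537 and called it.

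MT1A (ENSG00000205362, chr16:56638666-56640087, plus strand) was expressed but did not pass the test. It had 230 and 224 reads in the controls, 149 in cadmium 1 and 291 in cadmium 2. The controls lay between the cadmium libraries. DESeq2 estimated a log2 difference of -0.07 (standard error 0.45, adjusted p 1.00), and edgeR gave an unadjusted p of 0.883. Its sign depended on the cadmium library, at 0.33 on the log2 scale when cadmium 1 was left out and -0.62 when cadmium 2 was. MT1A sits between MT1M and MT1F along the chromosome, both of which were higher in cadmium.

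**Figure D3:**
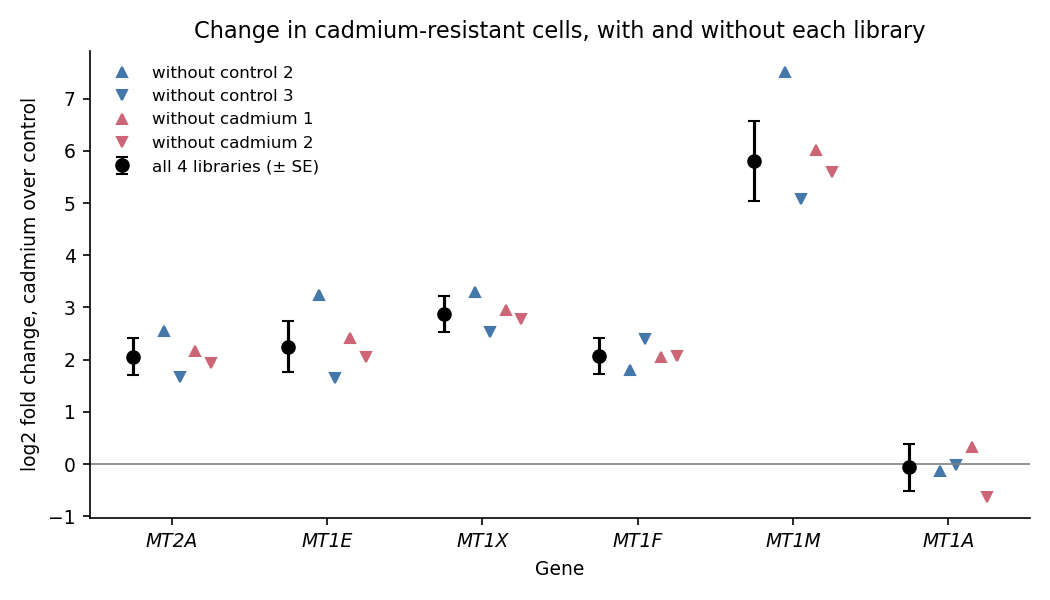
Log2 fold change of cadmium over control for the 6 members tested in DESeq2. Black points with bars are all 4 libraries ± the standard error, and triangles leave out 1 library each. MT2A, MT1E, MT1X, MT1F and MT1M stay above 1.6 in each of these fits, while MT1A lies between -0.62 and 0.33.

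The pseudogenes of the cluster had almost no reads assigned to them. MT1L (ENSG00000260549, chr16:56617428-56618830) had 0 reads in every library. MT1JP (ENSG00000255986, chr16:56635739-56637086) had 1 read, in cadmium 2. MT1DP (ENSG00000205361, chr16:56643610-56644942) had 8 reads in control 2 and 0 in the other libraries. For a row with no read, the same limit of 6 counts is 0.0969 to 0.116 CPM depending on the library, so lower levels were not detectable at this depth. Reads assigned to these pseudogenes made up at most 8 counts beside the 23289 to 172286 of all members in a library. MT1L is 94.6% identical to MT1E in its coding sequence, and reads that mapped to several genes were dropped. How much of each pseudogene is unique was not measured, so counts and limit hold only for reads that could be assigned.

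Together the 10 members took a larger part of the library in cadmium cells. They accounted for 0.0823% and 0.0448% of assigned reads in control 2 and control 3, and for 0.262% and 0.304% in cadmium 1 and cadmium 2. The mean share was 0.0636% ± 0.0265 in control and 0.283% ± 0.0299 in cadmium (SD, n = 2 each), a 4.46-fold difference that ranged from 3.19 to 6.79 between pairings. The exact two-sided permutation test over libraries gave p = 0.333, the smallest that 2 against 2 allows. Summing the 16 metallothionein rows of chromosome 16 before the fit, which removes any misassignment among them, gave a log2 fold change of 2.10 (standard error 0.37, DESeq2 adjusted p 2.19e-05).

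MT2A and MT1E supplied nearly all of these reads in both groups. MT2A made up 78.4% and 83.6% of member reads in the controls and 78.2% and 77.0% in the cadmium libraries, with control 2 barely above cadmium 1. MT1E made up 19.2%, 12.5%, 17.9% and 19.3% in the same order. MT1X held 1.66% and 1.92% of member reads in the controls and 3.04% and 2.90% in the cadmium libraries, with no overlap between the groups. The MT1A share was 0.452% and 0.962% in the controls and 0.103% and 0.169% in the cadmium libraries, also without overlap. On the log2 ratio to the sum of the other members, the exact permutation p was 0.333 for MT1X and for MT1A. Random assignment of libraries to groups would give such a separation in the same share of cases. How many of all genes show it was not computed.

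A ratio within a library needs no scaling between libraries and compares the changes of 2 members directly. MT1X reads were 2.12% and 2.29% of MT2A reads in the controls and 3.89% and 3.77% in the cadmium libraries, a difference of 0.80 on the log2 scale. MT1A reads were 0.576% and 1.15% of MT2A in the controls and 0.132% and 0.219% in the cadmium libraries, a difference of -2.26. Both pairs of groups were separate, with an exact permutation p of 0.333, the smallest possible. MT1E stood at 24.4% and 15.0% in the controls and at 22.9% and 25.1% in the cadmium libraries, and these groups overlapped (log2 difference 0.33, exact permutation p = 0.667). MT1F also overlapped, at 0.431% and 1.20% against 0.775% and 0.654% (log2 difference -0.01, exact permutation p = 1.00). The groups were thus separate for MT1X and MT1A, in opposite directions. Random assignment of libraries to groups would separate them in a share of 0.333, and the share over all genes was not computed. MT1A reads themselves overlapped between groups, so its lower ratio reflects the higher MT2A reads. For MT1E and MT1F the gap between the controls was larger than that between the group means.

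**Figure D4:**
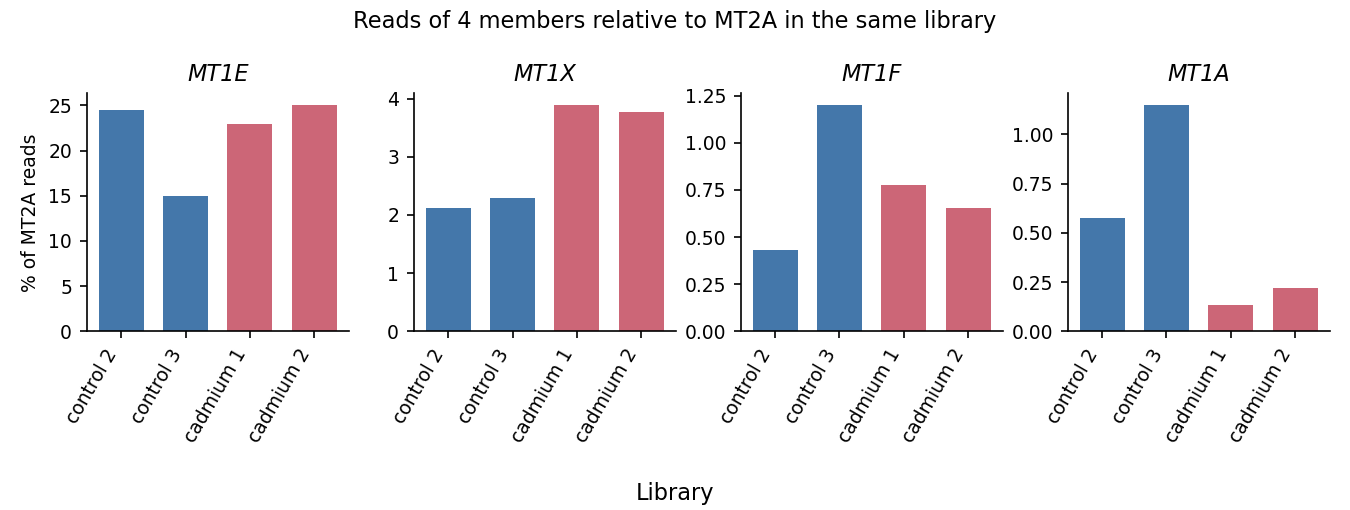
Reads of MT1E, MT1X, MT1F and MT1A as a percentage of MT2A reads in the same library. Each bar is 1 library and starts at 0, each panel has its own vertical scale, and controls are blue and cadmium libraries red. MT1X is higher in both cadmium libraries, MT1A is lower in both, and MT1E and MT1F overlap between groups.

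Levels of different genes were compared as RPKM, which scales reads by gene length and library total, using the merged exon length of the table. In control cells the order of mean RPKM was MT2A (558 ± 209), MT1E (102 ± 68.2), MT1A (10.1 ± 1.07), MT1X (6.45 ± 2.08), MT1F (1.97 ± 0.660) and MT1M (0.114 ± 0.107), with no overlap between neighbours in this order (SD, n = 2). In cadmium cells it was MT2A (2403 ± 228), MT1E (503 ± 78.9), MT1X (48.7 ± 3.48), MT1A (9.91 ± 4.35), MT1F (8.43 ± 0.209), MT1M (6.86 ± 1.36) and MT1G (0.358 ± 0.0743). MT1A and MT1F overlapped in cadmium, and the other neighbours did not. MT1A thus stood above MT1X in control and below it in cadmium on this scale.

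The place of MT1A depends on the length used. The table gives MT1X 1727 bases and MT1F 1852, because exons of all annotated transcripts are merged, whereas their canonical spliced transcripts have 404 and 425. MT1A has 396 bases by both measures. With canonical lengths MT1X (27.6 RPKM) was above MT1A (10.1 RPKM) in control as well, and MT1F (36.7 RPKM) was above MT1A (9.91 RPKM) in cadmium.

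The other 11 metallothionein rows of the table held few reads apart from MT2P1. MT2P1 (chr4:68376323-68376505) is a processed pseudogene, a copy made from spliced MT2A message, and its 183 bases are 95.2% identical to the MT2A coding sequence. It had 1425 and 624 reads in the controls and 4126 and 5223 in the cadmium libraries, and was called higher by DESeq2 (log2 fold change 2.20, standard error 0.40, adjusted p 2.01e-05). In the same order its reads were 3.57%, 3.21%, 3.66% and 3.94% of those of MT2A, so it followed MT2A from library to library. The longest run it shares with MT2A is 68 bases, and whether its reads came from MT2A message was not tested.

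The remaining rows had at most 39 reads in a library. MT1XP1 (chr1:16241213-16241398), a processed copy that is 96.2% identical to the MT1X coding sequence, had 8, 6, 26 and 39 reads. DESeq2 did not call its log2 difference of 2.20 (adjusted p 0.481). For MT1XP1 the unadjusted p was 0.0193 in DESeq2 and 0.0112 in edgeR. Its reads were 0.592% to 1.35% of those of MT1X. MT3, a metallothionein known mainly from brain, had 2, 2, 2 and 6 reads. MT1P1 had at most 4 reads in a library, MT1P3 at most 4 and MT1B at most 3, and the other 5 rows, MT1H, MT1HL1, MT4, MT1CP and MT1IP, had none.

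The members span 75.6 kb, and 67 other rows lie within 1 Mb on either side, of which 27 were tested. Of these 1 was higher and 1 lower by DESeq2, beside 0.601% and 0.535% of all genes, and their median log2 fold change was -0.08. BBS2, a gene of the ciliary BBSome complex that ends 25.9 kb before MT2A, had 823, 999, 851 and 818 reads (log2 fold change -0.15, DESeq2 adjusted p 1.00). NUP93, a nucleoporin gene 45.9 kb beyond MT1X, had 5206, 3204, 3255 and 3525 reads (log2 fold change -0.31, DESeq2 adjusted p 1.00). ADGRG1, an adhesion G protein-coupled receptor gene 926 kb away, was higher (log2 fold change 1.12, DESeq2 adjusted p 0.0415), and the chemokine gene CX3CL1, 688 kb away, was lower (-1.92, DESeq2 adjusted p 0.0412). The tested row nearest to a member was ENSG00000260823, a noncoding transcript on the minus strand whose 3′ end lies 4 bases past that of MT2A. It had 0, 5, 23 and 21 reads (log2 fold change 3.06, DESeq2 adjusted p 0.664), and as counting ignored strand, reads of MT2A running past its annotated end cannot be told apart from it.

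**Figure D5:**
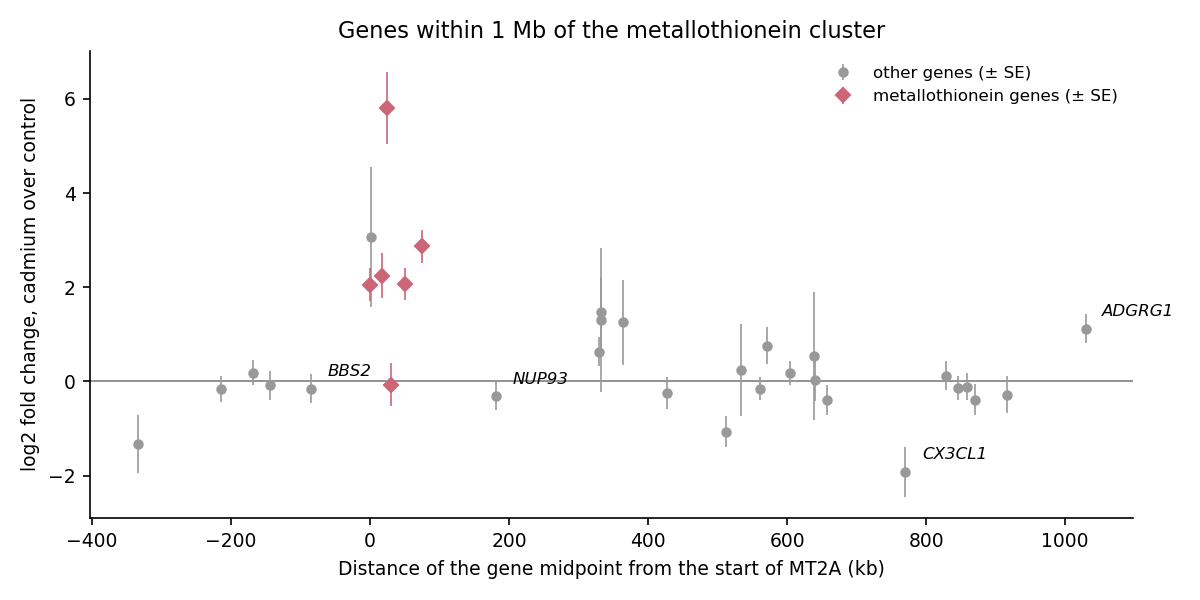
Log2 fold change of cadmium over control against the distance of each tested gene from the start of MT2A in kb. Diamonds are the 6 tested metallothionein members, grey points the 27 other tested genes within 1 Mb, and bars the standard error. The 5 called members stand above 2, MT1A lies at -0.07 and the median of the other genes is -0.08.

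A further list of 30 genes held MTF1, metal transporters, oxidative stress genes and transcription factors known from metallothionein promoters or metal stress. Of these 28 were tested, 2 were higher by DESeq2 (0.601% of all genes) and 0 were lower (0.535% of all genes), and the median log2 fold change was 0.05, beside -0.02 for all genes. HMOX1, the enzyme that breaks down heme, had 1552, 739, 6467 and 6220 reads (log2 fold change 2.48, standard error 0.36, DESeq2 adjusted p 1.58e-08). SLC7A11, the cystine importer that feeds glutathione synthesis, had 1966, 2818, 8114 and 9798 reads (log2 fold change 1.87, DESeq2 adjusted p 1.77e-05). At an unadjusted p below 0.05 in DESeq2, 5 genes of the list were higher, SLC30A1, SLC30A10 and ABCC2 besides HMOX1 and SLC7A11. By the same cutoff 2 were lower, SELENOW and SLC40A1. Of all 33455 genes with a read, 646 were higher and 792 lower at this cutoff. Of these 33455 genes 19816 had an adjusted p-value, and the counts among those alone were not computed. By edgeR HMOX1 and SLC7A11 had unadjusted p-values, 7.44e-04 and 0.00138, of the same order as those of MT2A. MTF1, which encodes the factor that binds metal response elements, had 2059, 1105, 1360 and 1239 reads, and its log2 fold change was -0.28 (DESeq2 adjusted p 1.00). SLC30A1, the zinc exporter of the plasma membrane and a target of MTF-1, had 2298, 4341, 6597 and 7467 reads, with a log2 fold change of 1.04 (DESeq2 adjusted p 0.339). Both cadmium libraries were above both controls for SLC30A1, which held for 20.3% of all genes tested. Its normalized counts were 2174 in control 2 and 4616 in control 3.

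The genes outside the family whose profile over the 4 libraries was nearest to that of MT2A were FAT3, UCA1, SP140, LTF and HMOX1. Likeness was the Euclidean distance between centred log2 normalized counts (plus 1) among 14350 genes with a mean of at least 50. FAT3, an atypical cadherin gene, was nearest at 0.220, with 464, 223, 1242 and 1274 reads. The noncoding RNA gene UCA1 followed at 0.362, the nuclear body gene SP140 at 0.393, the lactoferrin gene LTF at 0.397 and HMOX1 at 0.478. Among members of the cluster MT1E lay at 0.603, MT1X at 0.799, MT1F at 1.06, MT1A at 2.42 and MT1M at 3.63. The 5 named genes were selected as the nearest of 14350 and the members were not. Their smaller distances therefore do not show that members follow MT2A less closely than other genes do. With 4 libraries such distances mainly reflect the group means and the gap between control 2 and control 3, in which MT2A, MT1E and MT1X were higher in control 2 and MT1F in control 3.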

How the data were processed

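Messenger RNA of MDA-MB-231 cells was sequenced as 150-base read pairs. The authors trimmed adaptors, aligned reads to hg38 with HISAT2 and counted them per gene with featureCounts 2.0.1, and the deposited values are raw counts. Per the file headers no option on strand, pairs or shared reads was set, so mates were counted separately, strand was ignored, and reads that mapped to or overlapped several genes were dropped. Intervals and floors cover counting error only.

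Symbols were matched for 61369 of 61541 genes. DESeq2 1.42.0 (design: group, Wald test, two-sided) in R 4.3.3 was fitted to the whole table and adjusted p-values were taken over all genes, with a threshold of 0.1. The test was chosen after the study's own use of DESeq2. The edgeR 4.0.16 quasi-likelihood test and limma 3.58.1 (voom) were alternatives. The scripts were tested on simulated data. The 37 mitochondrial genes were at 0 throughout. The members and lists were chosen with earlier results of these data known. Named genes were all members, other metallothionein rows with a read, called genes of the metal and neighbour lists with MTF1, SLC30A1 and the nearest expressed gene on each side of the cluster, and the 5 profiles nearest to MT2A. Other named genes were chosen after their values were seen. The table numbers its controls 2 and 3 and the labels 1 and 2, so these columns were given a group but no replicate number. The sequencing of bound and accessible chromatin was not analysed here.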

Additional observations from a re-analysis of the deposited data

How the results depend on the processing

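Across all genes DESeq2 called 119 higher and 106 lower. Counts of calls were 0 and 0 with edgeR, where 709 and 713 genes had an unadjusted p below 0.05, 0 and 0 with limma-voom (786 and 637), and 41 and 17 in a DESeq2 test against a log2 fold change of 0.5. Upper-quartile factors gave 152 higher and 88 lower. Leaving out each library in turn gave 9 to 2678 higher and 5 to 3511 lower, with the lone library of a group assumed to vary like the other group. The lowest of these counts came without a cadmium library and the highest without control 3.

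Of the members 5 were called higher by DESeq2, 0 by edgeR and 0 by limma-voom, with 6 at an unadjusted p below 0.05 in both, of which MT1M and MT1G passed the filters only through their cadmium libraries. The DESeq2 count was 1 to 6 without 1 library (6, with MT1G, without control 3, 2 without cadmium 1, and 1 without cadmium 2, where MT1M had no adjusted p-value). Under the other DESeq2 settings (other size factors, filters and thresholds, halved counts, and a likelihood ratio test chosen after seeing the data) the 5 calls remained in number, and log2 fold changes ranged from 2.05 to 2.12 for MT2A and from 2.86 to 2.93 for MT1X. The log2 fold change of MT1A changed sign to 0.33 without cadmium 1 and was -0.62 without cadmium 2. The 4.46-fold difference in read share ranged from 3.44 to 6.32 without 1 library, with 6.32 without control 2.

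The within-library log2 difference to MT2A ranged without 1 library from 0.74 to 0.85 for MT1X, from -2.76 to -1.76 for MT1A, from -0.03 to 0.68 for MT1E and from -0.75 to 0.73 for MT1F. The level per length of MT1F over MT1A in cadmium was 0.851 with the lengths of the table and 3.71 with canonical lengths, and that of MT1X over MT1A in control was 0.636 and 2.72. These lengths were chosen after seeing the data and account for the difference by construction. No paired analysis was possible because numbers of the controls differ between table and labels, so the planned fit with a replicate block was not run. With 2 libraries a group, exact tests cannot go below 0.333.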
